A study of Mus musculus with 20 samples.

Results

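The comparison of short amosite asbestos (SFA) with the vehicle control (VC) in the diaphragm of mice rests on 8 arrays, the 4 labeled SFA and the 4 labeled control, of 20 arrays in all. Amosite is an iron-rich amphibole asbestos, and the diaphragm is the sheet of skeletal muscle between chest and abdomen, covered by mesothelium on both faces. Female C57BL/6 mice of 8 weeks received either 25 μg of SFA in 0.5% BSA in saline or 0.5% BSA in saline alone, by injection into the pleural cavity, and the diaphragm was taken 12 weeks later. The SFA had been ground in a ball mill from the same batch of amosite as the long fibers (LFA), so that 3.1% of its fibers were 5 μm or longer, against 100% of LFA. LFA at 25 μg and short and long carbon nanotubes (SNT and LNT) at 5 μg were given to the other 3 groups of 4 mice, whose arrays share in the estimate of the spread. Each mouse gave 1 array, so n = 4 in each group, and the RNA is that of all cells in a frozen part of the diaphragm. The hour at which tissue was taken is not given in the sources used here.

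Values are log2 intensities with the 75th percentile of the array set to 0, and a difference of 1 is 2-fold. On the 8 arrays the 75th percentile of the signal ran from 294 to 648, and 53% to 64.5% of the spots were marked as well above background in the files. VC replicate 2 had the lowest of both. The arrays correlated with each other at 0.939 to 0.984. The 8 arrays lay on 3 slides scanned on 2 days, with VC and SFA replicates 1 and 2 on 1 slide, VC replicate 3 and SFA replicates 3 and 4 on another, and VC replicate 4 alone on the remaining slide. Tests took in the 36931 probes with such a mark on 4 or more of the 20 arrays, and a gene is represented by the brightest of its tested probes (20695 genes).

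The genes with the smallest p-values in this comparison belong to the circadian clock. In the clock of mammals, CLOCK and ARNTL bind together to E-boxes in promoters and drive transcription of Per1, Per2, Per3, Cry1, Cry2, Nr1d1, Nr1d2, Ciart, Dbp, Tef, and Hlf. PER and CRY proteins then repress CLOCK and ARNTL, and the nuclear receptors NR1D1 and NR1D2 repress Arntl, so that Arntl and the E-box genes peak at opposite times of day. Skeletal muscle runs such a clock of its own, which sets daily rhythms of metabolic genes. A neighboring group, the immediate early genes, answers within minutes to nerve activity, hormones, and stress, often through cyclic AMP response elements (CRE).

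The promoters of 4 genes that lay lower on the SFA arrays are given here to show how they differ in the E-box (CACGTG, the same on both strands) and in the core of the CRE (TGACG, or CGTCA on the other strand) next to their start. Each is a window of 250 bases before a start that RefSeq gives on GRCm38.p6, written in the direction of the gene, with these motifs in capitals. For Per1, which has 2 starts there, the window was chosen by its number of these motifs. The window of Ciart, a repressor of CLOCK and ARNTL, is chr3:95882229-95882478 on the minus strand, and its 3 E-boxes begin 116, 58, and 44 bases before the start. The window of Per1 is chr11:69098699-69098948 on the plus strand and holds a CRE core at 246 bases and an E-box at 166 bases before the start. The window of Nr4a1, an orphan nuclear receptor of the immediate early group, is chr15:101266596-101266845 on the plus strand and holds 4 CRE cores, at 233, 213, 69, and 40 bases. The window of Dbp, which encodes a PAR bZIP activator, is chr7:45704997-45705246 on the plus strand and holds 0 E-boxes. The probes themselves lie elsewhere in these genes and are given in the files on another build, NCBI37, where the first Dbp probe is at chr7:52965322-52965381, the Ciart probe at chr3:95682433-95682492, and the Per2 probe at chr1:93313046-93313105.
Ciart: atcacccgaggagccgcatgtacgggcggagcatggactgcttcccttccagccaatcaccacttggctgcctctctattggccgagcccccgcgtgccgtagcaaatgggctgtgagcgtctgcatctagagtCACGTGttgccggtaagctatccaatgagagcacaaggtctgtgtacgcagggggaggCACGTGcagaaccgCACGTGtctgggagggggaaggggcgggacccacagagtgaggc
Per1: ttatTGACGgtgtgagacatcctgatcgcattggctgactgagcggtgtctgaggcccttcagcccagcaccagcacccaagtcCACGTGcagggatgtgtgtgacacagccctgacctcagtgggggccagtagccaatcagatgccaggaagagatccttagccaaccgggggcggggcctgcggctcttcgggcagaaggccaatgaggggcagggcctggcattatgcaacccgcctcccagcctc
Nr4a1: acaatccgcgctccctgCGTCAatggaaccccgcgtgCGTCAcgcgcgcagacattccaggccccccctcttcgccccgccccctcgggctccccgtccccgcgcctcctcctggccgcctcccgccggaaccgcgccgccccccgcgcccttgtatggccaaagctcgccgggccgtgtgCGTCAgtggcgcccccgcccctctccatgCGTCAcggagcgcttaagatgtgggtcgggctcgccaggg
Dbp: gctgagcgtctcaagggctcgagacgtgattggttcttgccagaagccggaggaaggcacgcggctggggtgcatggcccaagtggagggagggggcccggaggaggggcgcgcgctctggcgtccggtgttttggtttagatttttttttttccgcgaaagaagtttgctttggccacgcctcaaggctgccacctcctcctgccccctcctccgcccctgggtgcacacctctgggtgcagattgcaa
Of 32851 such windows, which do not cover every mouse chromosome, 6.02% hold CACGTG and 17.8% hold TGACG on either strand. Among the 16 tested clock genes found in the table, 5 had CACGTG in any of their windows (Bhlhe41, Ciart, Cry1, Per1, and Tef). Counted by window, as in the shares above, 6 of their 21 windows held CACGTG and 6 held TGACG on either strand. A match describes these letters in this window and is not evidence that a factor binds there.

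To ask what short fibers left in the diaphragm after 12 weeks, SFA was compared with VC by limma in a single model of all 20 arrays. Of the 36931 probes, 0 (0.0%) passed a 2-fold difference with a Benjamini-Hochberg adjusted p under 0.05. There were 843 probes with an unadjusted p under 0.05, 404 higher and 439 lower in SFA. The smallest adjusted p was 0.0903, for the second probe of Dbp, and no other probe was under 0.1. This probe alone passed with normexp background correction (adjusted p = 0.0274), with probes well above background on all 8 arrays (0.0364), and with array brightness as a covariate (0.0386). With limma's array weights, which gave VC replicate 3 a weight of 4.23 and VC replicate 2 a weight of 0.17, 1487 probes passed, 345 higher and 1142 lower. The absence of calls does not show that the groups were alike. The 95% interval of a probe's difference reached 0.84 to either side at the median, and the interval lay within 2-fold in either direction for 39.1% of the probes and within 4-fold for 86.7%.

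Among genes, 267 (1.29%) were higher and 227 (1.1%) lower in SFA at an unadjusted limma p under 0.05. All 4 SFA arrays lay above all 4 VC arrays for 135 genes (0.652%) and below them for 186 (0.899%). On average 11818 of the 20695 genes were lower and 8877 higher in SFA, and 10154 were lower after quantile normalization. These counts and shares are the background against which the lists below are to be read. Members of a list are read on the same arrays, so they are not independent of each other. Because 0 probes passed the test, every gene is described here by its values, and the order of genes by p is a description. Apart from Ciart, Dbp, Per2, and Nr4a1, the genes named below had a limma adjusted p of 0.999 against VC. The lists, and the genes chosen from them, were drawn up with earlier results of these data known.

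**Figure D1:**
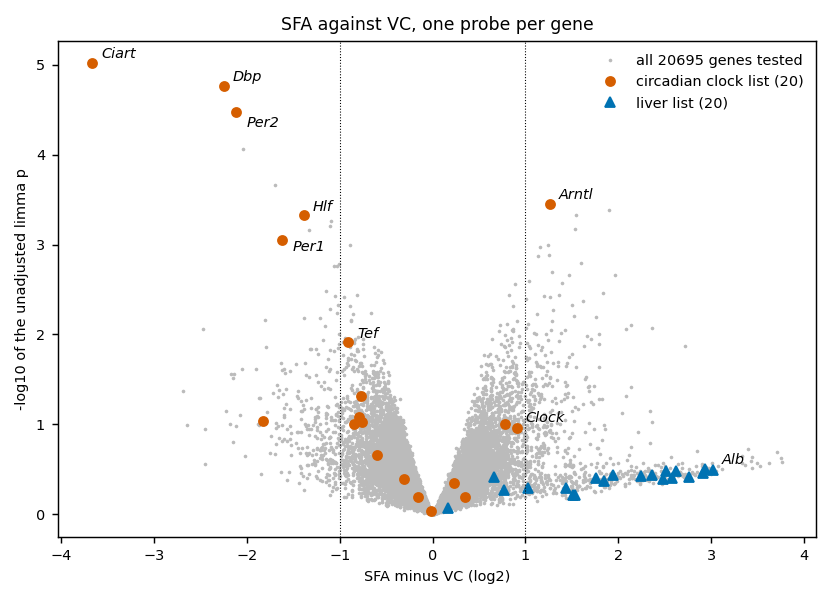
Each of the 20695 genes is plotted by the SFA minus VC difference (horizontal axis, log2) and by −log10 of its unadjusted limma p (vertical axis). Dotted lines mark 2-fold. Ciart, Dbp, and Per2 have the smallest p-values, the 20 clock genes (orange) spread to both sides, and the 20 liver genes (blue triangles) lie to the right with large p-values.

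Of 20 tested clock genes, 15 were lower and 5 higher on average in SFA-exposed mice. At an unadjusted p under 0.05, 7 were lower and 1 higher, and the groups did not overlap for 4 lower genes (Ciart, Dbp, Per2, and Tef) and 1 higher gene (Arntl). The median difference of the list was −0.76, against −0.06 for all genes. Its mean on each array, relative to the VC mean, was −0.06, −0.21, 0.12, and 0.15 on the VC arrays and −0.78, −0.63, −0.68, and −0.82 on the SFA arrays. Every SFA array thus lay below every VC array, which held for 2 of the 31 lists examined.

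Among the PAR bZIP activators, which carry the clock's rhythm to metabolic genes, Dbp had the clearest separation. The probe that represents it read 5.50, 6.50, 5.85, and 5.84 in VC replicates 1 to 4 and 3.74, 3.60, 4.18, and 3.18 in SFA replicates 1 to 4. The highest SFA array was below the lowest VC array by more than the range within SFA. The difference was −2.25 (SE 0.39, 95% interval −3.06 to −1.43), or 4.75-fold, with a limma adjusted p of 0.211. Its second probe, about as bright, gave 5.64, 6.46, 5.80, and 5.91 in VC and 3.69, 3.59, 3.97, and 3.28 in SFA, a difference of −2.32 (SE 0.34). Within the slide that holds replicates 1 and 2 of both groups the first probe differed by −2.33, and within the slide that holds the third VC mouse by −2.17. Tef, of the same family, read 4.94, 6.09, 5.45, and 5.39 in VC and 4.83, 4.49, 4.78, and 4.12 in SFA. Its groups did not overlap, though VC replicate 1 and SFA replicate 1 nearly met, and the difference was −0.91. Hlf, the remaining member, read 0.99, 0.82, 1.71, and 1.32 in VC and −0.53, 0.86, −0.60, and −0.45 in SFA. SFA replicate 2 was inside the VC range and the other 3 SFA arrays were far below it, for a difference of −1.39 (SE 0.33, 95% interval −2.07 to −0.70).

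Among the repressors, Ciart read −3.07, −4.10, −1.87, and −2.41 in VC and −6.79, −6.11, −5.86, and −7.36 in SFA. Its probe was well above background on all 4 VC arrays and not well above background on any SFA array, so SFA was at least 4.52-fold lower (fitted difference −3.67, SE 0.60, limma adjusted p = 0.177). With normexp the fitted difference was −1.07. Per2 read −1.07, −1.85, −0.83, and −0.84 in VC and −3.34, −3.55, −2.31, and −3.87 in SFA. The groups did not overlap, with SFA 4.34-fold lower (−2.12, SE 0.39, limma adjusted p = 0.312). Per1, whose window is printed above with its E-box, read 3.57, 2.28, 3.57, and 4.34 in VC and 1.11, 2.02, 2.65, and 1.49 in SFA. SFA replicate 3 was above VC replicate 2, and the difference was −1.62 (SE 0.41). A far dimmer second probe of Per1 differed by −0.13. Per3 differed by −1.83 with wide spread in VC (−5.77 to −1.81), and the difference for Bhlhe40, another repressor, was −0.77. Cry2 (−0.31) and Cry1 (0.78) had overlapping groups.

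In the positive arm, Arntl read 0.32, 0.62, 0.22, and 0.58 in VC and 2.29, 1.13, 1.53, and 1.83 in SFA. All 4 SFA arrays were above all VC arrays, 2.40-fold on average (1.26, SE 0.29, limma adjusted p = 0.999). Its partner Clock differed by 0.90, with SFA replicates 1 and 3 high and SFA replicates 2 and 4 inside the VC range. Npas2, which can take the place of CLOCK, was well above background on 1 of the 4 SFA arrays and on 0 VC arrays. The nuclear receptors of the loop differed less, Nr1d1 by −0.76, Nr1d2 by −0.60, and Rora by −0.02, all with overlapping groups. Nfil3, a repressor that competes with DBP for its sites, differed by 0.24.

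**Figure D2:**
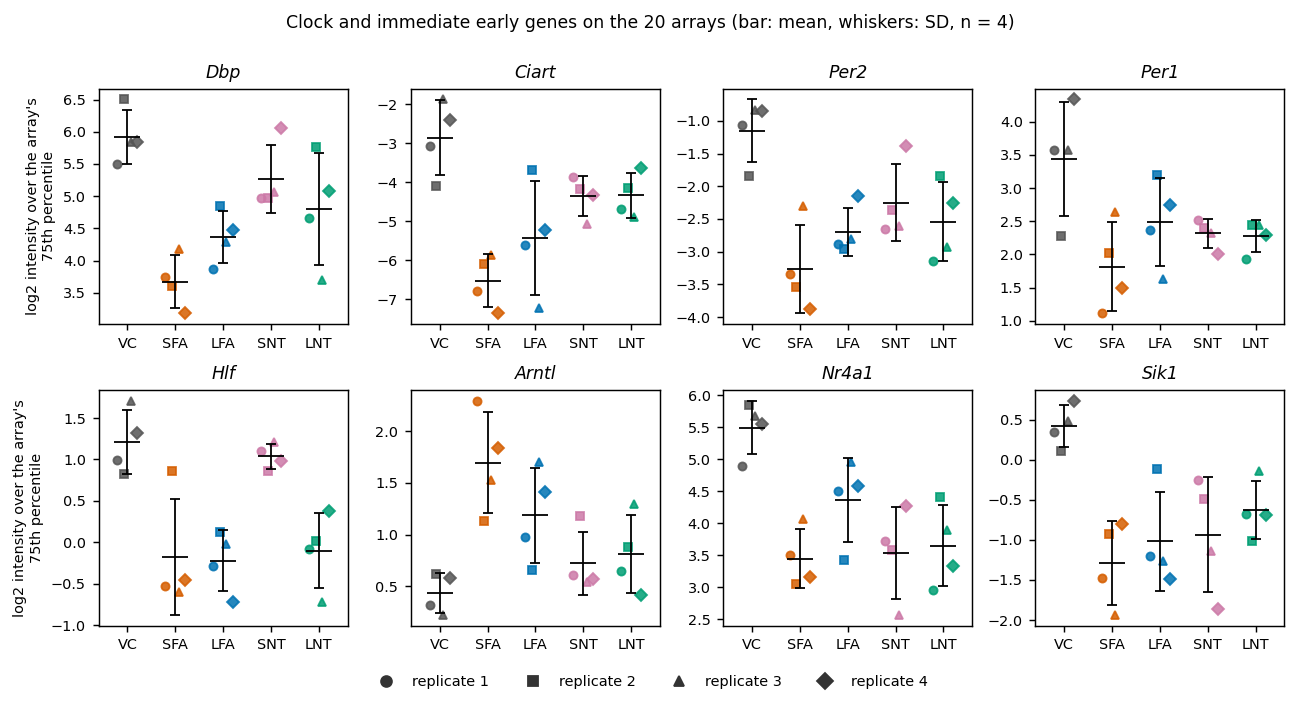
Log2 intensity over the array's 75th percentile (vertical axes) is plotted for 6 clock genes and for Nr4a1 and Sik1 on the 20 arrays, by group, with the mean (bar) and SD (whiskers, n = 4). For Dbp, Ciart, Per2, Nr4a1, and Sik1 the 4 SFA arrays sit below the 4 VC arrays, for Arntl above them, and for Per1 and Hlf the groups overlap.

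Several measures that vary between the arrays were set beside this pattern. The rank correlation of a probe's GC content with its deviation from its median over all arrays was taken per array. It was 0.16, −0.05, 0.14, and 0.30 on the VC arrays and −0.33, 0.11, −0.29, and 0.22 on the SFA arrays, with overlapping groups. After centering within bins of probe GC, an alternative chosen after seeing the data, the difference was −2.07 for Dbp, −3.73 for Ciart, −2.10 for Per2, and 1.29 for Arntl, and the smallest adjusted p over all probes was 0.637. Without the arrays high in Alb, which are described below, the differences were −2.60, −4.29, −2.43, and 1.59 in the same order. The median of the clock list was −0.72 after quantile normalization, −0.61 after GC centering, −0.48 with array weights, −0.88 without the arrays high in Alb, and −0.57 without VC replicate 4. With any 1 of the 8 arrays left out, Dbp stayed between −2.41 and −2.05 and Ciart between −4.08 and −3.34.

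The same VC arrays serve all fiber groups, so their levels are given only side by side. For genes named because every SFA array lay beyond every VC array, those 4 SFA arrays are fixed in the counts of fiber arrays. Extreme VC readings, which the choice favors, also raise the counts in the other groups. The share of all genes with such counts is not given here. Dbp averaged 5.92 in VC and 3.67 in SFA, beside 4.37 with LFA, 4.80 with LNT, and 5.27 with SNT. Of the 16 fiber arrays, 14 lay below every VC array for Dbp and Per2, 13 for Ciart and Tef, 11 for Hlf, and 6 for Per1, and 12 lay above every VC array for Arntl. For Hlf these were 3 SFA, 4 LFA, 4 LNT, and 0 SNT arrays. The mean of the clock list relative to VC was −0.76 in LFA, −0.30 in SNT, and −0.62 in LNT. A direct contrast of SFA with SNT, which uses no VC array and was added to the comparisons, had 0 probes called, 2152 at an unadjusted p under 0.05, and a smallest limma adjusted p of 0.444. In it Dbp differed by −1.60 (95% interval −2.41 to −0.78), Ciart by −2.18 (−3.44 to −0.91), and Hlf by −1.22 (−1.90 to −0.53). These genes had been picked for low values on the same SFA arrays. Their intervals, which are not adjusted for that choice, lend no independent weight. Sik1 differed there by −0.35 (−1.12 to 0.43) and Nr4a1 by −0.09 (−0.94 to 0.76).

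Immediate early and stress genes did not move as a block. Of 18 tested, 11 were lower and 7 higher in SFA, 2 were lower at an unadjusted p under 0.05, and the median was −0.36. Nr4a1 was the member whose groups did not overlap. It read 4.89, 5.84, 5.67, and 5.55 in VC and 3.50, 3.05, 4.07, and 3.16 in SFA, all 4 SFA arrays below the VC range by a wide gap (−2.05, SE 0.41, limma adjusted p = 0.632). Its relative Nr4a2 differed by −0.78, with SFA replicates 1 and 2 inside the VC range. Fos (−0.06), Egr1 (0.15), and Jun (0.31), the classic members of this group, had overlapping groups. Outside this list, Sik1, a kinase induced by cyclic AMP that restrains CREB signaling and acts on the clock, read 0.35, 0.11, 0.48, and 0.73 in VC and −1.47, −0.93, −1.94, and −0.80 in SFA. Every SFA array was well below every VC array (−1.70, SE 0.37, 95% interval −2.48 to −0.93). All 16 fiber arrays lay below every VC array for Sik1, and 15 did for Nr4a1. Both genes met the naming rule, which fixed the 4 SFA arrays in these counts.

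The other genes lower in SFA by the rule for named genes had varied roles. Map3k6, a stress-activated kinase, had tight groups. It read 2.22, 2.27, 2.32, and 2.20 in VC and 1.21, 1.02, 1.22, and 1.19 in SFA. The SD was 0.05 in VC and 0.09 in SFA, with a difference of −1.09 (SE 0.26), and a second probe of Map3k6 differed by −1.04. By the test of the methods, which allows unequal variances, Map3k6 was the 1 probe that passed after 2-fold selection and Benjamini-Hochberg adjustment (adjusted p = 0.0199). That adjustment took in only the 1829 probes already past 2-fold on these same arrays, of 36931 tested. The p-value is therefore not adjusted over all probes. Usp2, a deubiquitinase that acts on clock proteins, read 3.89, 5.00, 3.90, and 3.82 in VC and 3.07, 3.05, 3.09, and 2.80 in SFA. The groups did not overlap, VC replicate 2 stood above the other VC arrays, and the difference was −1.15, or −0.86 without that array.

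Slc25a33, a mitochondrial carrier of pyrimidine nucleotides, differed by −1.11, with SFA between 2.09 and 2.65 and VC between 3.08 and 4.06. Ddit4, an inhibitor of mTORC1 induced by stress and glucocorticoids, differed by −1.06, and Gadd45g, a growth arrest gene, by −1.01. Arrdc2 (−1.02), which encodes an α-arrestin, and Znrf3 (−1.03), a ubiquitin ligase that lowers Wnt receptors, complete the 12 lower genes named by rule. Slc25a33 and Arrdc2 had second probes with differences of −1.03 and −1.02. All 16 fiber arrays lay below every VC array for Map3k6, Slc25a33, Gadd45g, and Usp2. Here too the naming rule fixed the 4 SFA arrays, and the VC arrays are shared. Directly between LFA and SFA, these genes differed by 0.01 for Map3k6 (95% interval −0.54 to 0.56), −0.35 for Slc25a33 (−0.91 to 0.22), and −0.38 for Usp2 (−1.09 to 0.33).

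Beside Arntl, the genes higher in SFA and well above background on all 8 arrays were Adamts4, Spon2, Cyp26b1, Akr1c18, and Rnase6. Adamts4, an aggrecan-cleaving protease of matrix remodeling, read −1.23, −0.57, −1.67, and −1.30 in VC and 0.18, 0.17, −0.18, and 0.03 in SFA. All SFA arrays were above all VC arrays by 2.37-fold (1.24, SE 0.32), and a second probe of Adamts4 differed by 1.17 without overlap. Spon2, a secreted matrix protein that binds integrins on immune cells, read 0.32, 0.85, −0.31, and 0.44 in VC and 1.91, 1.87, 1.03, and 1.64 in SFA (1.29, SE 0.36). Its groups were apart by a small gap.

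Cyp26b1, which degrades retinoic acid, read 0.38, 0.53, −0.82, and 1.36 in VC and 1.53, 3.65, 1.36, and 2.79 in SFA (1.97, SE 0.55). SFA replicate 3 and VC replicate 4 nearly met. Akr1c18, which inactivates progesterone, differed by 1.16, and Rnase6, an antimicrobial ribonuclease, by 1.36. Dimmer genes, with 0 to 3 of the VC arrays well above background, were Tmigd1 (1.55), Asxl3 (1.26), Palb2 (1.14), Trat1 (1.84), and Gzmb (1.19). Trat1, an adaptor of the T cell receptor, was not well above background on any VC array, and SFA was at least 1.87-fold higher. A second probe of Palb2, a partner of BRCA2 in DNA repair, differed by −0.08. Under normexp the differences of Tmigd1, Palb2, and Gzmb shrank to 0.50, 0.20, and 0.37, while Spon2 kept 1.23 and Adamts4 kept 1.04.

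Liver transcripts varied more within each group than between the groups. Alb, the albumin gene and the defining marker of hepatocytes, read 6.68, −1.09, −0.72, and 0.98 in VC and 3.94, 8.66, 7.29, and −1.94 in SFA. VC replicate 1 and SFA replicates 2 and 3 were high, and the lowest array of all 8 was in SFA. The difference was 3.02 with an SE of 2.97 (95% interval −3.21 to 9.25). All 20 tested liver genes were on average higher in SFA, 0 with an unadjusted p under 0.05 and 0 without overlap. The list's mean relative to VC was 3.05, −1.08, −1.43, and −0.55 in VC and 0.78, 5.80, 3.59, and −2.35 in SFA, and its median difference of 2.10 became 0.31 without the 8 of 20 arrays high in Alb, which leaves 2 SFA and 3 VC arrays. Genes that the liver also makes, in the lists of complement (median 0.24) and acute phase proteins (0.29), went to 0.09 and −0.10 in the same way.

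The muscle signature of the tissue was present on every array and lower on average in SFA. In such bulk RNA, fewer cells of a type and less RNA per cell cannot be told apart. All 28 tested skeletal muscle genes were lower in SFA, with 0 at an unadjusted p under 0.05, and the median was −0.38 (−0.16 after quantile normalization, with 21 of 28 lower, and −0.14 without VC replicate 2). Ckm, the muscle creatine kinase, read 7.95, 7.01, 7.66, and 8.34 in VC and 6.44, 5.98, 6.94, and 7.85 in SFA, with overlapping groups (−0.94). Mylpf, the fast myosin light chain, differed by −0.89 and Tnnt3, the fast troponin T, by −0.70. All 29 tested genes of oxidative phosphorylation were lower, by a median of −0.28 that became −0.07 after quantile normalization, with 20 of 29 lower, and turned to 0.02 without VC replicate 2 and with array weights. VC replicate 2 stood apart in this list, with a mean of 0.83 relative to VC against −0.36 to −0.17 on the other VC arrays and −0.42 to −0.20 in SFA.

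**Figure D3:**
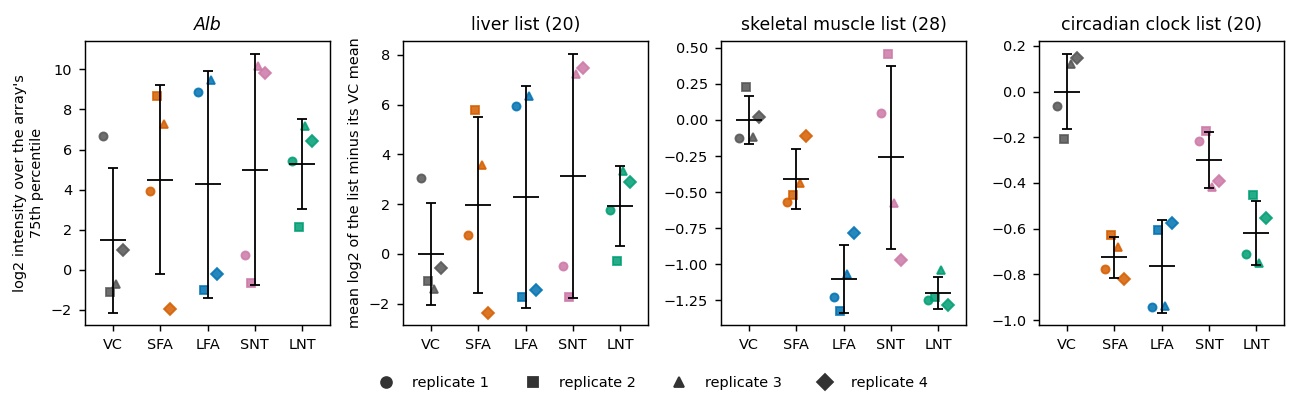
Alb (log2 intensity relative to the 75th percentile) and the means of 3 lists relative to their VC mean (log2) are plotted for each of the 20 arrays with the mean (bar) and SD (whiskers, n = 4). Alb and the liver list scatter within SFA and within VC, the muscle list overlaps, and the clock list is at −0.82 to −0.63 in SFA against −0.21 to 0.15 in VC.

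Among metabolic genes of muscle, 20 of 24 were lower in SFA, 2 of them at an unadjusted p under 0.05 and without overlap. Ppara, a nuclear receptor that drives fatty acid oxidation, read 4.45, 4.14, 4.36, and 3.69 in VC and 2.94, 3.66, 3.14, and 3.40 in SFA (−0.88). Its top SFA array was just under its lowest VC array, while its other 2 tested probes had overlapping groups, with differences of −0.52 and −0.58. Hadha, the α-subunit of the mitochondrial trifunctional protein, differed by −0.60. Trim63, a ubiquitin ligase of muscle atrophy, was without overlap at −0.87, while Fbxo32, the other well-known atrophy ligase, was higher by 0.64 with overlapping groups. Together with Ddit4 these were 2 of 23 atrophy and denervation genes lower and 1 higher at an unadjusted p under 0.05. The median of the metabolic list was −0.26, −0.08 after quantile normalization, and −0.13 without VC replicate 2, and that of the atrophy list was −0.18 and −0.12.

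Immune genes were slightly higher on average in SFA and mostly overlapped with VC. Of 37 inflammatory mediators tested, 32 were higher, 3 of them at an unadjusted p under 0.05, with 0 free of overlap and a median of 0.33 (0.20 without SFA replicate 1 and 0.55 without VC replicate 2). Ccr2, the receptor of inflammatory monocytes, read 0.13, 0.84, −0.28, and −0.95 in VC and 1.66, 0.28, 1.17, and 0.72 in SFA. It differed by 1.02 (SE 0.40), with SFA replicates 2 and 4 inside the VC range, and Il6 by 1.17, with SFA replicate 2 inside it. All 22 interferon-stimulated genes were higher on average, by a median of 0.35 (0.15 without SFA replicate 3, 0.62 without VC replicate 2, and 0.90 with array weights), with 1 (Ifi44, 0.72) at an unadjusted p under 0.05.

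Markers of immune cells were mixed. Of 27 macrophage genes tested, 22 were higher with a median of 0.20 (0.11 without VC replicate 1 and 0.40 without VC replicate 2), 0 at an unadjusted p under 0.05 and 0 free of overlap. Cd68, the lysosomal marker used to stain macrophages, read 1.74, 2.74, 2.50, and 2.20 in VC and 2.70, 2.86, 2.46, and 2.55 in SFA (0.34). T cell genes had a median of 0.29 (12 of 15 higher), which ran from 0.07 without VC replicate 4 to 0.51 without VC replicate 3. B and plasma cell genes had a median of 0.26, which ran from 0.03 without SFA replicate 1 to 0.43 without VC replicate 3 and was −0.04 with array weights, with Prdm1, the regulator of plasma cells, higher on every SFA array than on every VC array (1.09). Granulocyte genes were lower in 13 of 16 cases with a median of −0.48, which was −0.08 without the arrays high in Alb, −0.14 without SFA replicate 3, and −0.85 without SFA replicate 1. Mast and NK cell genes divided evenly, 6 higher and 6 lower, with a median of 0.07.

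For structural cells, intervals were wide, and 3 of 14 mesothelial and 9 of 23 fibroblast and matrix genes had a 95% interval within 2-fold. The 14 mesothelial genes, whose defining marker Msln read 4.88, 5.96, 4.80, and 5.18 in VC and 5.51, 4.69, 5.10, and 4.94 in SFA, had a median of −0.15, with 0 at an unadjusted p under 0.05. Of 23 fibroblast and matrix genes, 12 were higher and 11 lower, from −0.53 to 0.66, with a median of 0.21. For 2 of them, including Pdgfrb (0.53), every SFA array lay above every VC array, while Pdgfra (0.57) overlapped. Cldn5, the tight junction protein of endothelium, differed by 0.73, though the endothelial median was −0.11. Of 25 cell division genes 4 were higher at an unadjusted p under 0.05, and the median was 0.17 (0.05 to 0.35 with 1 array left out). Kif20a (1.28), a kinesin of cytokinesis, was free of overlap, while Bub1 (1.19) and Ccnb1 (0.98) overlapped. Other probes of Ccnb1 differed by 0.81 and 0.09. Mki67, the proliferation marker, differed by 0.17. Timp4, the metalloproteinase inhibitor of muscle and heart, read 3.08, 2.78, 2.32, and 2.01 in VC and 1.49, 1.07, 1.54, and 1.62 in SFA. Its groups did not overlap (−1.12), and all 16 fiber arrays lay below every VC array. Of 14 lung and airway genes, 7 passed the filter on dim probes, with a median of −0.12.

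**Figure D4:**
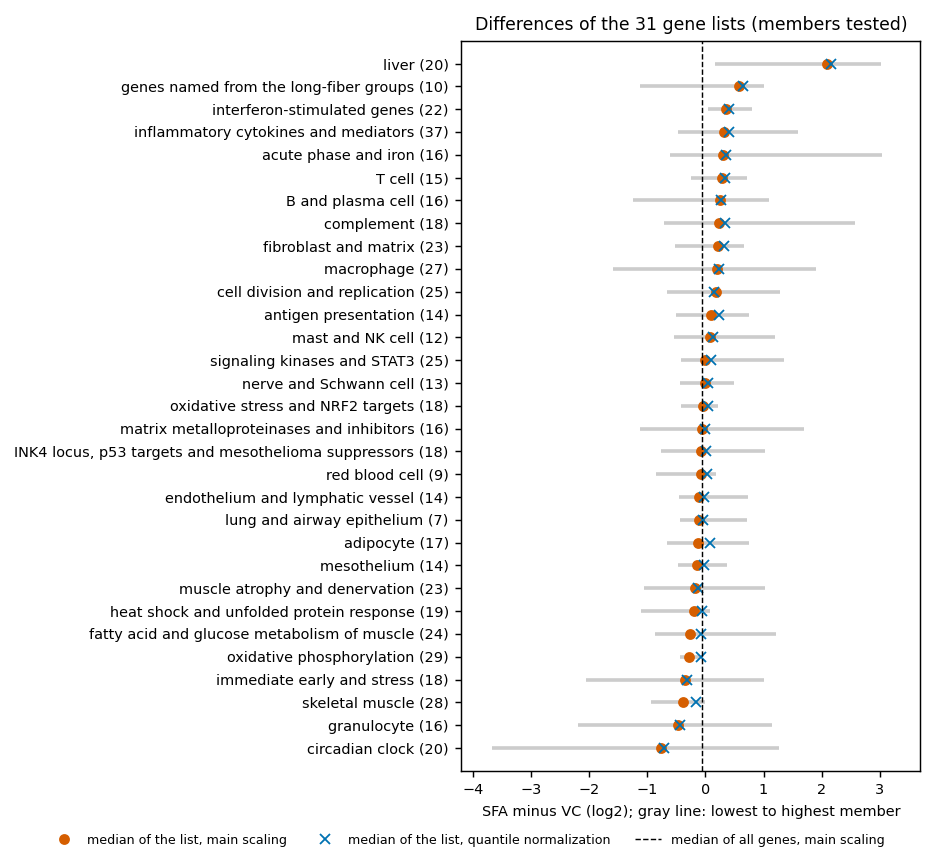
For each of 31 gene lists (number of genes tested in parentheses) the median SFA minus VC difference (log2, horizontal axis) is plotted after scaling to the 75th percentile (orange) and after quantile normalization (blue cross), with the range of the members (gray line). The clock list has the lowest median (−0.76) and the liver list the highest (2.10), and the dashed line marks all genes (−0.06).

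The heat shock and unfolded protein list was the other of the 2 whose SFA and VC arrays did not overlap, with SFA between −0.38 and −0.15 and VC between −0.13 and 0.27. Its median of −0.21 was −0.07 after quantile normalization and turned to 0.04 without VC replicate 2. Targets of NRF2, the regulator of antioxidant genes, had a median of −0.04 (0.05 after quantile normalization), with Hmox1 at −0.27. The list of the INK4 locus, p53 targets, and mesothelioma suppressors had a median of −0.07 (0.02 after quantile normalization), and Cdkn2a, which encodes the p16INK4A and p19ARF tumor suppressors, read −1.92, −1.80, −0.84, and −2.75 in VC and −1.40, −1.90, −1.55, and −1.26 in SFA. Its groups overlapped (0.30). Stat3 differed by −0.16 and Pik3cg by 0.57.

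To see where the tissue exposed to short fibers departs from that exposed to long fibers of the same batch and dose, LFA was contrasted directly with SFA, with no VC array in the contrast. Limma called 429 probes, 380 higher and 49 lower in LFA, and among genes 322 (1.56%) were higher and 18 (0.087%) lower. SFA was thus below LFA for 13 of 37 inflammatory mediators, 11 of 27 macrophage genes, and 3 each of the B and plasma cell, complement, and signaling kinase lists. It was called different for 0 clock genes. Of the 28 skeletal muscle genes 0 were called, yet all were on average lower in LFA than in SFA, with a median of −0.67. The number of probes was 93 without the arrays high in Alb and 155 without LFA replicate 2, so its size depends on few arrays.

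Calca, which encodes calcitonin and the neuropeptide CGRP, read −2.54, −3.02, −3.29, and −2.76 in SFA and 1.41, 3.65, −0.08, and 2.83 in LFA. The groups were far apart (4.86, SE 0.63, limma adjusted p = 0.000652), whereas SFA was 0.58 from VC with overlap. A second probe of Calca differed between LFA and SFA by 2.08 and was not called (limma adjusted p = 0.0587). Fam162b was not well above background on any SFA or VC array, and LFA exceeded SFA at least 11.9-fold (limma adjusted p = 5.22e-06). Among chemoattractants, Ccl8, a ligand for monocyte receptors, was higher in LFA by 4.23 and Cxcl5, a neutrophil attractant, by 4.68. Their SFA means of 1.73 and −3.38 were 0.33 and 1.005 above the VC means of 1.41 and −4.38, with overlap. The interval of this Cxcl5 difference ran from −0.52 to 2.53. Of the 10 genes named from earlier results on the long-fiber groups, 9 were on average higher and 1 lower in SFA than in VC. Their median difference was 0.58, and the SFA and VC arrays overlapped in the list mean. Olr1, a scavenger receptor for oxidized lipoprotein, differed between LFA and SFA by 3.83 (well above background on 1 of 4 SFA arrays), Saa3, an acute phase protein of macrophages, by 3.80, and the lectin gene Clec4n by 3.65.

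Cdkn2a was higher in LFA by 2.45 (limma adjusted p = 0.00942), and its second probe, not well above background on any SFA array, was at least 4.46-fold higher (limma adjusted p = 1.85e-07). Cd68 was higher in LFA by 1.61, and Hmox1, which breaks down heme, by 1.18, though a second, dimmer probe of Hmox1 differed by 0.22 (limma adjusted p = 0.929). Some genes on average higher in SFA than in VC were called higher again in LFA than in SFA. Spon2 added 2.16 to its 1.29, and Il6, whose SFA and VC groups overlapped, 2.53 to its 1.17. Over the alternatives, the lowest values for Il6 were 0.30 for SFA minus VC and 0.98 for LFA minus SFA. Timp4, lower in SFA by 1.12, was lower again in LFA at −1.21 but not called (limma adjusted p = 0.281), and neither was the osteoclast proton pump gene Atp6v0d2 (3.29, limma adjusted p = 0.0596). Mesothelial Msln (0.41) and Wt1 (1.22) and Mki67 (1.42) were not called.

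For the clock genes the direct contrast left both directions or small differences within its intervals. LFA minus SFA was 0.69 for Dbp (95% interval −0.12 to 1.51), 0.57 for Per2 (−0.25 to 1.38), −0.04 for Hlf (−0.73 to 0.64), and −0.51 for Arntl (−1.11 to 0.09). Ciart differed by 1.09 (−0.17 to 2.36), with LFA well above background on 1 of 4 arrays. Nr4a1 differed by 0.92 (0.07 to 1.78, limma adjusted p = 0.356). These intervals reach beyond 2-fold for Dbp, Per2, and Arntl and so do not exclude a difference of that size between the fiber lengths.

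**Figure D5:**
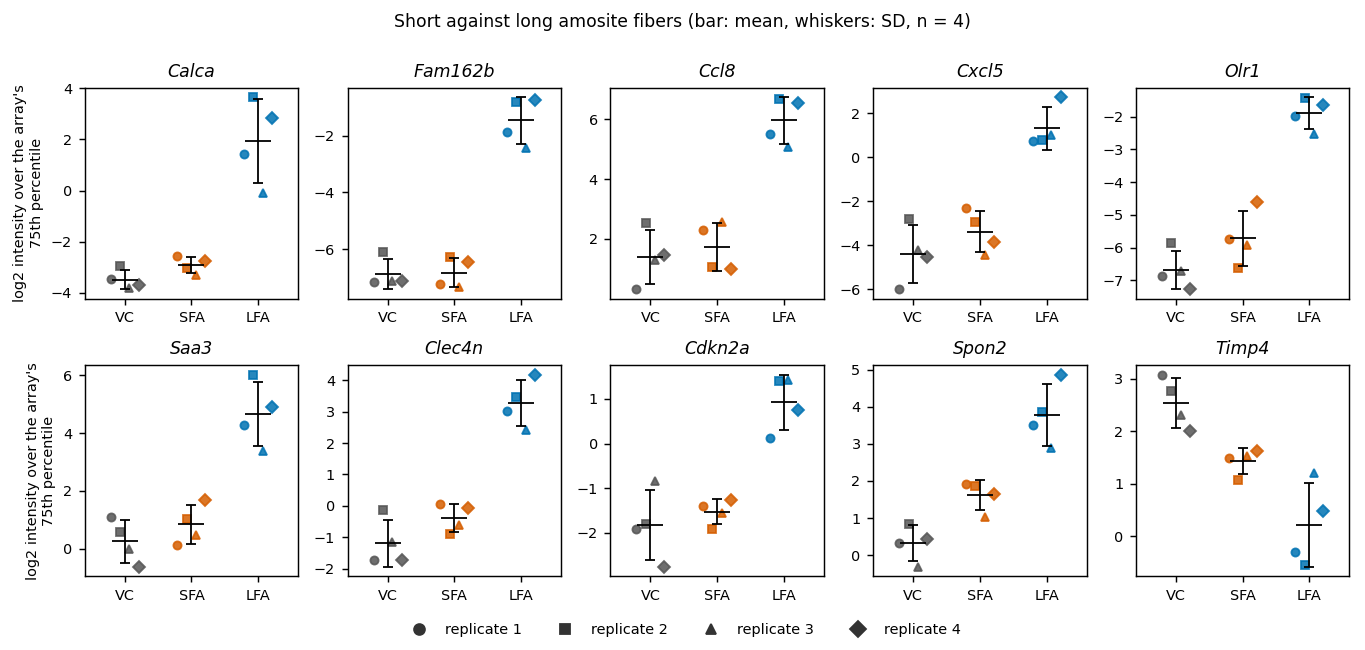
Log2 intensity over the array's 75th percentile (vertical axes) is plotted for 10 genes on the VC, SFA, and LFA arrays with the mean (bar) and SD (whiskers, n = 4). LFA stands apart for Calca, Fam162b, Ccl8, Cxcl5, Olr1, Saa3, Clec4n, and Cdkn2a, where SFA overlaps VC, while Spon2 and Timp4 in SFA lie between VC and LFA.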

How the data were processed

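RNA from a frozen part of each mouse's diaphragm was hybridized with a single dye to its own 60K array. The authors deposited the output of Agilent Feature Extraction 10.7.3.1, where a spot's value is a background-subtracted intensity, and log2 values normalized with GeneSpring as a further table, whose group means were used. The SFA minus VC differences of these means were a median of 0.0150 away from those computed here. Names of genes are those of the files, of which 27235 accessions matched the RefSeq table of GRCm38.p6, which served for names and promoters.

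Outlier spots (122 to 201 per array) were left out, 59305 noncontrol spots were averaged to 55681 probes, and log2 intensities were set relative to each array's 75th percentile. limma 3.58.1 in R 4.3.3 (with the data.table package, version 1.17.8) fitted a mean per group to all 20 arrays with moderated variances, with Benjamini-Hochberg adjustment. A probe was called at a log2 difference of at least 1 and an adjusted p under 0.05. Python 3.11.15, NumPy 2.4.6, pandas 2.3.3, and matplotlib 3.10.9 read files and drew figures. The model was tested on simulated data.

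The genes named are the 12 higher and 12 lower genes with the smallest unadjusted p among those with a 2-fold difference, no overlap, and signal above background on the higher arrays, up to 3 genes of each list, genes known from the long-fiber groups, and genes the study follows by other means. Tef, Per1, Hlf, and other list members named beyond this were chosen after their values were seen, and a few genes that meet these rules are not reported here. The members and lists were chosen with earlier results of these data known. A lower bound sets the brighter mean against the higher of the dim probe's own signal and the array's lowest signal well above background. Alternatives covered normalization, background correction, filters, slide, scan day, replicate number, array weights, covariates for liver and brightness, the unequal-variance test of the methods, and leaving out arrays. Replicate numbers do not mark the same animal, and the correlation of same-numbered deviations was −0.36, −0.12, −0.18, and 0.40, so the samples were not paired. The p-values measure spread between mice, with 4 per group, and limma pools that spread over the mice of all 5 groups. In the limma fit of SFA and VC alone, the smallest adjusted p was 0.652.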

Additional observations from a re-analysis of the deposited data

Results flagged for a closer look

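In groups of 4, an array was marked where its gap to the nearest other array took up more of the group's range than Dixon's 95% limit. Chance marks about 1 in 20 groups, and 7 of 124 groups of single genes and 7 of 62 groups of list means were marked. VC replicate 2 accounted for 8 of these 14 marks. Among single genes it was high for Usp2 (5.00) and Fam162b (−6.10, under background). Among list means relative to VC it was high for oxidative phosphorylation (0.83), NRF2 targets (0.36), and heat shock and unfolded protein genes (0.27), and low for endothelium (−0.52), the INK4 and p53 list (−0.25), and muscle atrophy genes (−0.31). VC replicate 1 was high for Bhlhe40 (2.73).

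Among SFA arrays, replicate 2 was high for Hlf (0.86) and low for Map3k6 (1.02). Replicate 4 was low for Usp2 (2.80) and high for Mylpf (2.64) and for the mean of the muscle atrophy list (0.0538).

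Measured against the same vehicle, the responses to short and long amosite differed for 12 of the 21 genes examined by direct contrast. Over all genes tested, 1.56% were called higher and 0.087% lower in LFA. A list of 10 genes named from earlier results on the long-fiber groups supplied 8 of the calls. Those 8 had been picked on these same data, so their calls were likely in advance and lend no independent weight. For Fam162b, not well above background on any SFA array, LFA was at least 11.9-fold higher, and the fitted 5.37 (1.83 with normexp) is not a measured size. The log2 difference was 4.86 for Calca, 4.68 for Cxcl5, 4.23 for Ccl8, 3.83 for Olr1, 3.80 for Saa3, and 3.65 for Clec4n. It was 2.53 for Il6, 2.45 for Cdkn2a, 2.16 for Spon2, 1.61 for Cd68, and 1.18 for Hmox1. Their adjusted limma p ran from 5.22e-06 (Fam162b) to 0.0308 (Hmox1).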

How the results depend on the processing

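For SFA against VC, 0 probes were called by limma under quantile normalization, median scaling, no filter, averaging by gene name, a block for slide or scan day, the fit of the 2 groups alone, a liver covariate, GC centering, and without the arrays high in Alb. With the replicate block 0 were called (smallest adjusted p 0.127). Exactly 1 probe, of Dbp, was called with normexp, with the filter on all 8 arrays, with array brightness as a covariate, and at an adjusted p under 0.1, and 1, of Map3k6, by the methods' test after 2-fold selection. That test unadjusted gave 189 at 2-fold, and array weights gave 1487. Leaving out any 1 array gave 0 calls throughout. No SFA difference of the 48 genes examined reversed. Many of these genes had been picked for SFA and VC arrays that do not overlap, so leaving out an array could not reverse them.

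For LFA against SFA (429 calls, 329 with the replicate block), the count was 171 with the 2 groups alone, 734 with array weights, 93 without the arrays high in Alb, 281 with array brightness, and by the methods' test 1703 unadjusted, 631 after adjustment over probes past 2-fold, and 0 after adjustment over all probes. It ran from 155 (without LFA replicate 2) to 527 with 1 array left out, and was 170 without LFA replicate 4, 168 without SFA replicate 2, and 228 without SFA replicate 3. The difference for Ciart, at background in SFA, reversed to −0.20 with normexp. The cause was not tested. Of 31 lists, 16 medians changed sign under at least 1 alternative. Dim probes and 4 mice per group limit what could be seen.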
